A study of Mus musculus with 12 samples.

Results

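The 9 genes described here encode transporters that carry amino acids across the plasma membrane: Slc7a5, Slc3a2, Slc7a1, Slc7a3, Slc1a4, Slc1a5, Slc38a1, Slc38a2 and Slc6a9. They were chosen by name, as a list of transporters, out of 32678 genes with a probe on the array, and all 9 were found. They were read by 14 probes, which were well above background on all 12 arrays. NIH3T3 is an established line of mouse embryonic fibroblasts. Cultures grown in DMEM with 10% bovine calf serum were exposed for 18 h to 2 µM PP242, to 50 nM rapamycin or to the solvent DMSO, with 4 one-colour arrays per group. For PP242 the treatment protocol names 2 mM, where the sample characteristics and the design text have 2 µM. The labels name no genetic change in any group, and the design text calls the samples independent experiments.

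The mTOR kinase works in a pair of complexes, mTORC1 and mTORC2, and the first of them raises protein synthesis when amino acids are plentiful. Rapamycin binds and partly blocks mTORC1, while PP242 occupies the ATP site of the kinase and blocks both complexes. Amino acids reach mTORC1 through transporters such as those described here, and several transporter genes are known targets of ATF4, a transcription factor that responds to amino acid shortage and to mTORC1. Which genes answer to a block of one or both complexes is the question of the comparison. Each compound was used at a single dose and the doses differ, so the 2 treatments are compared as given and not at a matched dose.

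Levels are log2 of the array's processed intensity minus the 75th percentile of that array, so 0 is the level below which 75% of the gene spots of the array lie, and a difference of 1 is a 2-fold change. A level holds for 1 probe and is not set against that of another gene. On 8 arrays, 55.8% to 60.5% of probes were well above background; these are DMSO 1, 3 and 4, rapamycin 1, 2 and 4 and PP242 2 and 3. On the other 4 arrays the dim probes were raised, with 78.0% of probes above background on DMSO 2, 97.9% on rapamycin 3, 84.2% on PP242 1 and 96.2% on PP242 4. Rapamycin 3 stood furthest apart, with a median correlation of 0.719 with the other arrays, against 0.973 to 0.984 for the 8. The main values therefore rest on the 8 arrays, and the 12-array values stand beside them. The arrays numbered 4 also stood apart together for some genes: Rragd, a GTPase of amino acid sensing, had -3.94 on PP242 4, -3.89 on rapamycin 4 and -3.75 on DMSO 4, against -1.43 to -1.12 on the other PP242 arrays and -1.54 to -1.35 on the other DMSO arrays. The 8 arrays hold rapamycin 4 and DMSO 4 but not PP242 4, so values are also given for the 6 that remain without them, 2 a group, an alternative added after seeing the data. The 12 arrays were spread over 3 slides, each of which held all 3 groups. Of the 8 arrays, slide 2 held none from DMSO and slide 3 none from PP242. In the main fit PP242 and DMSO therefore share slide 1 only. All 10 fibroblast markers were well above background on all 8 arrays, while none of the 4 endothelial markers was above background on any of them.

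The genes lie on 8 chromosomes of the mouse assembly GRCm38.p6. Slc7a5 spans chr8:121881146-121907686, Slc7a1 chr5:148327410-148399904 and Slc38a1 chr15:96571418-96643438. Slc38a2 lies on the same chromosome as Slc38a1, at chr15:96687392-96699728. The RefSeq promoter table of that build, which gives 250 bases before and 50 after an annotated start, held 8 promoters of 5 of the 9 genes: Slc3a2, Slc7a1, Slc1a4, Slc38a2 and Slc6a9. They were searched on both strands for TGATGNAA, the core of the element bound by ATF4 with a CEBP partner, and for the E-box CACGTG, a site of MYC and MiT/TFE factors. The first was found in 1 of the 8 promoters, that of Slc1a4, and in 3.969% of all 32851 promoters of the table. The E-box was found in 0 of the 8 and in 7.15% of all promoters. The Slc1a4 match, read on the opposite strand as TTGCATCA and written in capitals, begins 4 bases before the annotated start. It is shown with the upstream promoter of Slc7a1, which held neither motif. Of the genes called below in the main 8-array fit, Slc7a1 is the only 1 that the table covers. Each is given 5′ to 3′ on the gene's strand, as 280 bases that end 30 bases after the start; Slc1a4 is read from the minus strand of chr11:20332684-20332963 and Slc7a1 from the minus strand of chr5:148399875-148400154.
Slc1a4: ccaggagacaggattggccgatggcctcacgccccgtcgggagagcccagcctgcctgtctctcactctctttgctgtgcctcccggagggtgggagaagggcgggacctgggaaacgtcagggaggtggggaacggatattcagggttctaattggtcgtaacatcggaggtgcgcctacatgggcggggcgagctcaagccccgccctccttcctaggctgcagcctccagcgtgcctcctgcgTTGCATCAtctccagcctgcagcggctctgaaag
Slc7a1: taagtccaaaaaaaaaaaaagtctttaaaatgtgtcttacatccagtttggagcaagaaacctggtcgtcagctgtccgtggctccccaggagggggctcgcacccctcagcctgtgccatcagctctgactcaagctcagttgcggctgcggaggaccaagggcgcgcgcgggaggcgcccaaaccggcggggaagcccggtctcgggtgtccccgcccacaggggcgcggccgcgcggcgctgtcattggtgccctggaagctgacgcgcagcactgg

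In PP242-treated cells 3 of the 9 transporter genes fell and 0 rose relative to DMSO. Those that fell were Slc7a5, the light chain of the LAT1 exchanger for leucine and other large neutral amino acids, Slc7a1, a carrier of arginine and lysine, and Slc38a1, a sodium-coupled carrier of glutamine and other small neutral amino acids. Slc7a5 fell 4.67-fold, Slc7a1 1.96-fold and Slc38a1 1.61-fold. Without DMSO 4 the fall was 3.76-fold for Slc7a5 and 1.76-fold for Slc7a1. RNA came from whole cultures, so fewer cells with a transcript and less of it per cell cannot be told apart. Over all 19669 genes tested with limma on the 8 arrays, 12.9% were lower and 12.9% were higher in PP242 at an adjusted p under 0.05. The median log2 fold change was -0.42 over the 9 transporters and -0.01 over all genes. With all 12 arrays limma called 0 of the 9 and 0.387% of all 25581 genes, and 1 of the 9 had an unadjusted p under 0.05, as did 9.05% of all genes. With only rapamycin 3 left out, an alternative added after seeing the data, 4 of the 9 were called, all lower, and 23.1% of all genes. On the 6 arrays 6 of the 9 were called, and 49.3% of all 19119 genes. These were Slc7a5 (-1.91 ± 0.07), Slc7a1 (-0.82 ± 0.07), Slc38a1 (-0.68 ± 0.08), Slc3a2 (-0.35 ± 0.06) and Slc6a9 (-0.29 ± 0.05), all lower in PP242, and Slc7a3 (0.44 ± 0.10), which was higher, with limma adjusted p from 0.000517 to 0.0237.

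Slc7a5 had levels of -1.40, -1.54, -1.58 and -0.92 on PP242 arrays 1 to 4, against 0.29, 0.10, 0.41 and 1.28 on DMSO arrays 1 to 4. All 4 PP242 arrays lay below all 4 DMSO arrays, and DMSO 4 was the highest of the 12. The share of all genes whose groups do not overlap was not counted, here or for the genes below. The log2 fold change on the 8 arrays was -2.22 ± 0.29 (SE; limma adjusted p = 0.00323; n = 2 PP242 and 3 DMSO arrays). On 12 arrays it was -1.88 ± 0.35, with a limma adjusted p of 0.0598 (0.048 where every probe was tested on its own), and without rapamycin 3 it was -1.88 ± 0.26, with an adjusted p of 0.00104. On slide 1 alone, with 1 PP242 and 2 DMSO arrays of the 8, the difference was -2.33. With all 12 arrays it was also -2.33 on slide 1, -1.35 on slide 2 and -1.81 on slide 3. With slide as a block in the 8-array fit it was -2.20 ± 0.39, with a limma adjusted p of 0.0485.

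Slc3a2 encodes the CD98 heavy chain, which brings Slc7a5 and related light chains to the cell surface. Its levels were 3.84, 4.11, 4.08 and 3.63 on PP242 arrays 1 to 4, against 4.46, 4.36, 4.42 and 4.65 on DMSO arrays 1 to 4. The PP242 arrays lay below the DMSO arrays without overlap, by a smaller distance than for its partner. The log2 fold change was -0.42 ± 0.16 on the 8 arrays and missed the threshold (limma adjusted p = 0.108), as it did on 12 arrays (-0.56 ± 0.43, adjusted p = 0.796). Using 11 arrays, all but rapamycin 3, it was -0.56 ± 0.15 and passed, with a limma adjusted p of 0.0245, and without rapamycin 4 the 8-array value passed at 0.0308. These values are those of the brighter of 2 probes. On the second, dimmer probe of Slc3a2 the PP242 and DMSO arrays overlapped. It gave -0.12 ± 0.20 on the 8 arrays and 0.34 ± 0.69 on 12.

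Slc7a1 is the main carrier of cationic amino acids in most mouse cells. Its levels were 0.44, 0.75, 0.73 and 0.57 on PP242 arrays 1 to 4, against 1.54, 1.39, 1.57 and 2.01 on DMSO arrays 1 to 4. Every PP242 array was below every DMSO array. The log2 fold change was -0.97 ± 0.16 on the 8 arrays (limma adjusted p = 0.00733) and -1.01 ± 0.49 on 12 arrays (adjusted p = 0.62). With slide as a block it was -0.98 ± 0.20 and no longer passed, with a limma adjusted p of 0.063. Leaving out PP242 2 or PP242 3 also ended the call (limma adjusted p = 0.0545 and 0.0593). The within-slide difference on slide 1 was -1.03, and with all 12 arrays it was -0.74 on slide 2 and -1.13 on slide 3. A second, dimmer probe gave -0.64 ± 0.21, with a limma adjusted p of 0.0688 where every probe was tested on its own.

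Slc7a3, a related cationic amino acid carrier, did not follow Slc7a1. It had levels of -1.84, -1.94, -2.14 and -1.49 on PP242 arrays 1 to 4, against -2.44, -2.05, -2.52 and -2.22 on DMSO arrays 1 to 4. The groups overlapped through PP242 3 and DMSO 2, and the 8-array log2 fold change of 0.35 ± 0.13 missed the threshold (limma adjusted p = 0.102); without DMSO 4 it was 0.44 and passed at 0.0467. The arrays with raised dim probes had the higher levels of this dim gene within each group; their part in the difference was not tested, and on the 8 arrays of the main fit the 2 PP242 levels lay above the 3 DMSO levels.

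Slc38a1 had levels of 2.73, 3.07, 2.96 and 2.28 on PP242 arrays 1 to 4, against 3.76, 3.61, 3.64 and 3.72 on DMSO arrays 1 to 4. The DMSO arrays lay within a narrow band and all PP242 arrays were below it. The log2 fold change was -0.69 ± 0.09 on the 8 arrays (limma adjusted p = 0.00327), -0.67 within slide 1, and -0.66 ± 0.12 with slide as a block (adjusted p = 0.0493). On 12 arrays it was -0.92 ± 0.45, with a limma adjusted p of 0.626, and the differences on slides 2 and 3 were -0.99 and -0.91. The other probe of the gene gave -0.72 ± 0.09 on the 8 arrays.

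Slc38a2, a further sodium-coupled neutral amino acid carrier known to be induced when amino acids run short, gave a different picture from each of its probes. The brighter probe had levels of 5.55, 5.68, 5.81 and 5.34 on PP242 arrays 1 to 4, against 5.42, 5.51, 5.65 and 5.80 on DMSO arrays 1 to 4. These groups overlapped fully, with a log2 fold change of 0.12 ± 0.13 (limma adjusted p = 0.559). The dimmer probe had 2.40, 2.76, 2.55 and 3.11 on PP242 arrays 1 to 4, against 3.10, 3.09, 3.06 and 3.36 on DMSO arrays 1 to 4. Where every probe was tested on its own it passed narrowly as lower in PP242, at -0.52 ± 0.15 with a limma adjusted p of 0.0488, and on 12 arrays it did not (-0.45 ± 0.49). The positions of the probes in the transcript are not used here, so a change for the gene as a whole cannot be stated.

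The last 3 genes did not pass on the 8 arrays, and DMSO 4 lay above the other DMSO arrays for each of them. Slc1a4, a carrier of alanine, serine and cysteine, had levels of 0.32, 0.25, 0.36 and 0.36 on PP242 arrays 1 to 4, against 0.23, 0.36, 0.33 and 1.11 on DMSO arrays 1 to 4. Slc1a5, the exchanger through which many cultured cells take up glutamine, had levels of 3.33, 3.49, 3.57 and 2.88 in PP242, against 3.60, 3.54, 3.60 and 4.08 in DMSO. Slc6a9, the glycine transporter GlyT1, had levels of 3.25, 3.50, 3.47 and 2.71 in PP242, against 3.79, 3.69, 3.76 and 4.76 in DMSO, without overlap. Their log2 fold changes were -0.25 ± 0.27 for Slc1a4, -0.23 ± 0.17 for Slc1a5 and -0.61 ± 0.30 for Slc6a9 (limma adjusted p = 0.547, 0.381 and 0.196). The 95% interval for Slc6a9 was -1.34 to 0.11, and without DMSO 4 its value was -0.29. Without that array Slc1a4 was at 0.02 and Slc1a5 at -0.07. A second probe of Slc1a4 had levels of -0.67, -0.44, -0.37 and -0.68 on PP242 arrays 1 to 4, against -0.45, -0.50, -0.46 and 0.41 on DMSO arrays 1 to 4, and gave -0.24 ± 0.31.

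**Figure D1:**
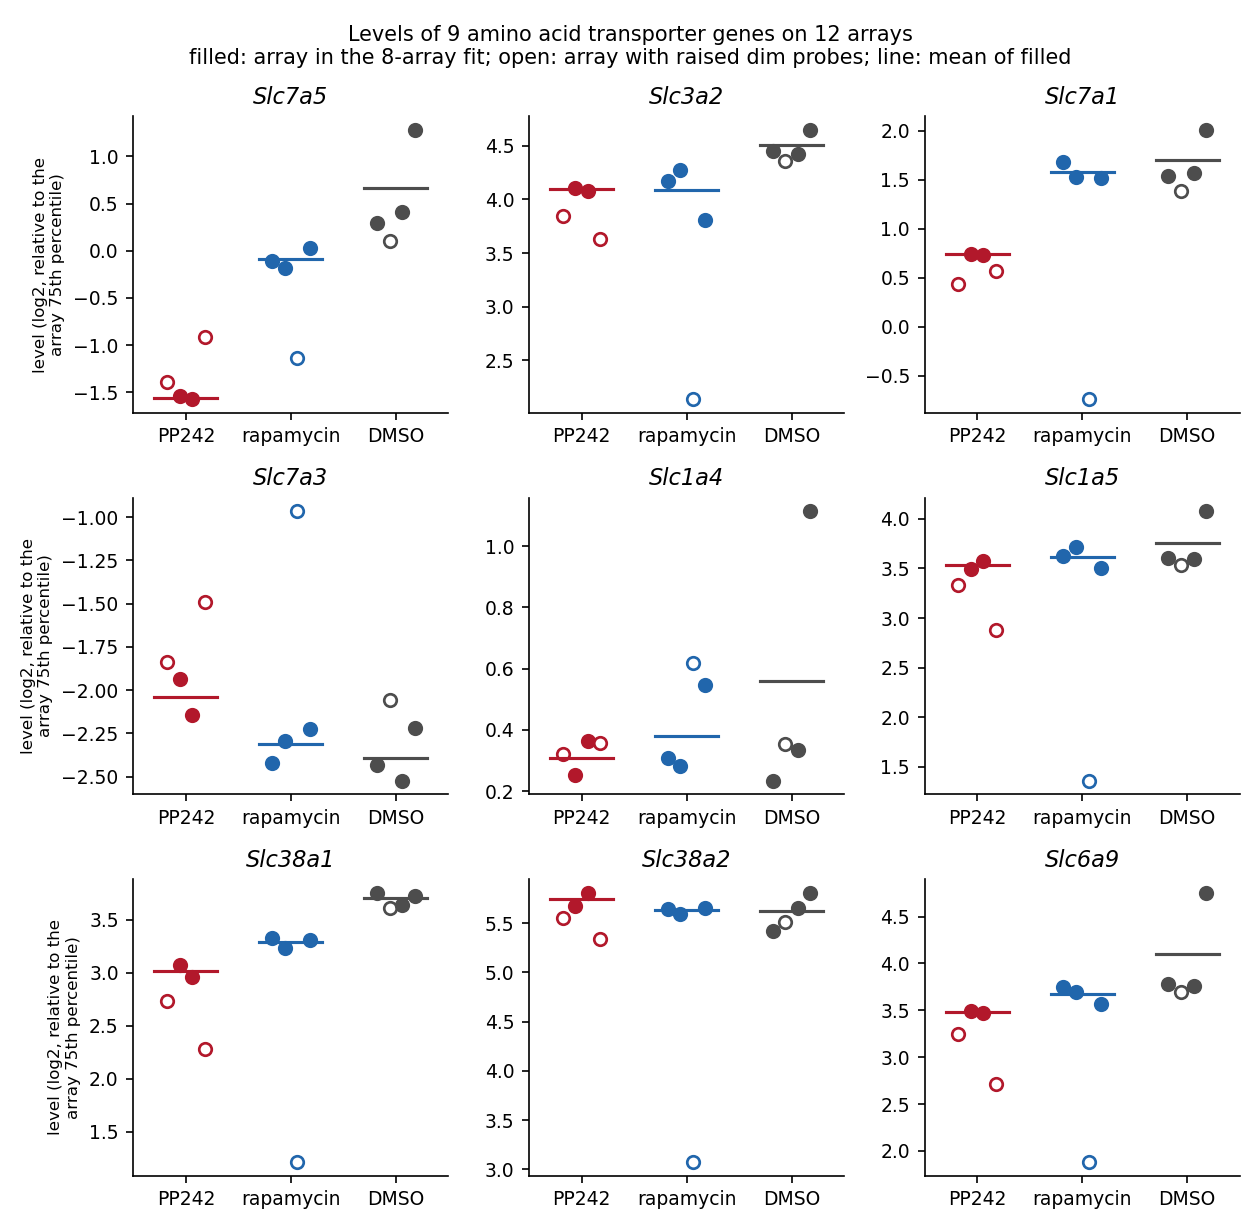
Level of each of the 9 genes on every array (vertical axis, log2 relative to the array's 75th percentile), by group, with filled points for the 8 arrays of the main fit, open points for the 4 arrays with raised dim probes and a line at the mean of the filled points. For Slc7a5, Slc7a1, Slc38a1, Slc3a2 and Slc6a9 all 4 PP242 points lie below all 4 DMSO points. Of these, Slc3a2 and Slc6a9 were not called on the 8 arrays. The open rapamycin point lies far from the other rapamycin points in most panels.

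In rapamycin none of the 9 genes passed limma's test against DMSO on the 8 arrays, where 3 of the 9 had an unadjusted p under 0.05, as did 13.1% of all genes. In this comparison 0.00508% of all genes were called lower and 0.0203% higher. With all 12 arrays limma called 0 of the 9 and 0% of all genes (unadjusted p under 0.05 for 1 of the 9 and for 1.77% of all genes). Without rapamycin 3 it called 0 of the 9 and 0.0385% of all genes. With 12 arrays weighted by their fit, Slc7a5 and Slc38a1 were called, as lower in rapamycin, with 13.1% of all genes. The 6 arrays gave the same 2 calls, at -0.50 ± 0.07 and -0.42 ± 0.08 (limma adjusted p = 0.0318 and 0.0467), with 11.3% of all genes. Whether these 2 genes pass therefore depends on the arrays used. Weighted in the same way, PP242 against DMSO gave calls for 36.8% of all genes and PP242 against rapamycin for 29.3%.

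Slc7a5 had levels of -0.11, -0.18, -1.14 and 0.03 on rapamycin arrays 1 to 4, all below the lowest DMSO array, whose level was 0.10. Its log2 fold change was -0.75 ± 0.26 on the 8 arrays (limma adjusted p = 0.311), -0.90 within slide 1 and -0.39 within slide 3, with -0.28 on slide 2 from the 12 arrays. Without DMSO 4 it was -0.44. The brighter probe of Slc3a2 had 4.17, 4.28, 2.14 and 3.81, also all below the DMSO arrays, with a log2 fold change of -0.42 ± 0.14 (limma adjusted p = 0.303). Its dimmer probe overlapped DMSO, with -1.58, -1.39, 1.23 and -2.02 on rapamycin arrays 1 to 4, against -1.24, -0.43, -1.48 and -1.56 on DMSO arrays 1 to 4. That probe gave -0.24 ± 0.18 on the 8 arrays and 0.24 ± 0.69 on 12. Slc38a1 had 3.33, 3.24, 1.21 and 3.31, again below all DMSO arrays, and its log2 fold change of -0.42 ± 0.08 came with a limma adjusted p of 0.144. With array weights over the 12 arrays its value was -0.42 ± 0.07 and passed, with a limma adjusted p of 0.00635, and Slc7a5 passed at -0.53 ± 0.11, with an adjusted p of 0.0133. These weights ran from 0.0169 for rapamycin 3 to 6.37 for rapamycin 1.

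Slc7a1 had levels of 1.68, 1.53, -0.74 and 1.52 on rapamycin arrays 1 to 4. Apart from rapamycin 3 these overlapped the DMSO arrays, and the log2 fold change on the 8 arrays was -0.13 ± 0.14, with a 95% interval of -0.48 to 0.22 (limma adjusted p = 0.785). On their brightest probes the other 5 genes had 8-array log2 fold changes between -0.43 for Slc6a9 and 0.08 for Slc7a3, with limma adjusted p of 0.572 or above. The brighter probe of Slc38a2 gave 0.01 ± 0.12 and the dimmer -0.16 ± 0.14. The second probe of Slc1a4 gave -0.49 ± 0.28 and did not pass where every probe was tested on its own (limma adjusted p = 0.533). Rapamycin 3 was the lowest of all 12 arrays for Slc3a2, Slc7a1, Slc1a5, Slc38a1, Slc38a2 and Slc6a9 and the highest for Slc7a3.

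Set directly against rapamycin, PP242 lowered 2 of the 9 genes and raised 0. These were Slc7a5 and Slc7a1. Over all genes on the 8 arrays, 7.08% were called lower and 6.82% higher in PP242 than in rapamycin. On 12 arrays 0 of the 9 and 0% of all genes were called (unadjusted p under 0.05 for 1 of the 9 and for 4.14% of all genes), and without rapamycin 3 it was 2 of the 9 and 10.8% of all genes. On the 6 arrays 3 of the 9 were called lower, with 36.1% of all genes: Slc7a5 (-1.42 ± 0.07), Slc7a1 (-0.87 ± 0.07) and Slc6a9 (-0.24 ± 0.05), at limma adjusted p from 0.00152 to 0.032. The difference between PP242 and rapamycin in Slc7a5 was -1.47 ± 0.29, with a limma adjusted p of 0.0223, and on slides 1 and 2 alone it was -1.43 and -1.40. For Slc7a1 it was -0.84 ± 0.16, with a limma adjusted p of 0.0209, and -0.93 and -0.80 on the same slides. With slide as a block the sizes were -1.50 ± 0.36 and -0.88 ± 0.19, and neither passed (limma adjusted p = 0.119 and 0.0994). On 12 arrays they were -1.01 ± 0.35 and -0.38 ± 0.49 (limma adjusted p = 0.963 and 1), and on slide 3, where rapamycin 3 lies, -0.84 and 0.05. Leaving out PP242 2, PP242 3, rapamycin 1 or rapamycin 2 from the 8 arrays ended both calls, at limma adjusted p between 0.0576 and 0.143, and leaving out rapamycin 4 ended that of Slc7a5 (adjusted p = 0.0513). The dimmer probe of Slc7a1 gave -0.62 ± 0.21 on the 8 arrays. It did not pass where every probe was tested on its own (limma adjusted p = 0.106).

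Slc38a1 was -0.27 ± 0.09 in PP242 relative to rapamycin and missed the threshold, with a limma adjusted p of 0.0995. Its other probe gave -0.45 ± 0.09 and passed where every probe was tested on its own, with a limma adjusted p of 0.0268. Slc3a2 differed between the treatments by 0.01 ± 0.16, with a 95% interval of -0.38 to 0.39. Of the remaining genes none passed, with 8-array values of the brightest probes between -0.18 for Slc6a9 and 0.28 for Slc7a3. The probes of Slc1a4 differed in sign here, at -0.07 ± 0.27 and 0.25 ± 0.31. Those of Slc38a2 did so too, at 0.11 ± 0.13 for the brighter and -0.36 ± 0.15 for the dimmer. The dimmer did not pass where every probe was tested on its own (limma adjusted p = 0.174).

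**Figure D2:**
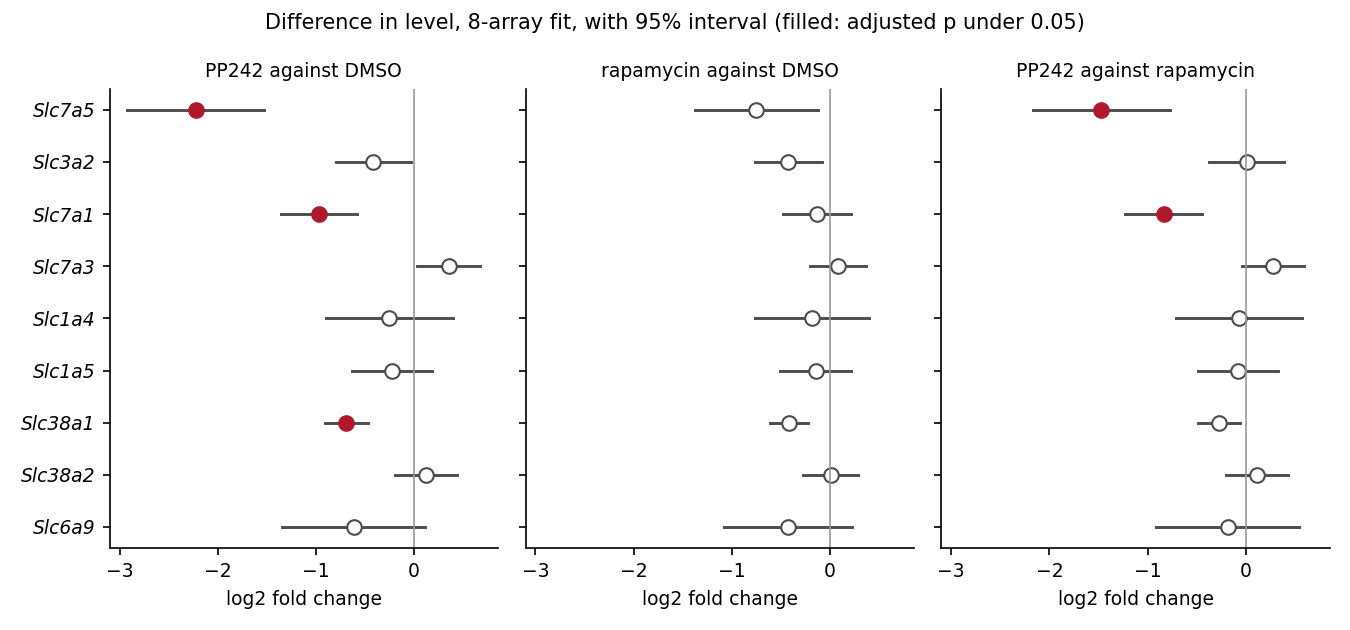
Log2 fold change of each gene (horizontal axis) with its 95% interval in the 8-array limma fit, for PP242 against DMSO, rapamycin against DMSO and PP242 against rapamycin; filled points passed an adjusted p of 0.05. Slc7a5, Slc7a1 and Slc38a1 are filled for PP242 against DMSO, none for rapamycin against DMSO, and Slc7a5 and Slc7a1 for PP242 against rapamycin.

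A ratio of 2 genes within an array does not depend on how arrays are scaled to each other, so related transporters were also compared in this way on all 12 arrays. Raised dim probes are not removed by a ratio, and PP242 1, PP242 4, DMSO 2 and rapamycin 3 enter these values. The ratios were chosen after levels had been seen, so their p-values are no separate support for the falls given above. The ratio of probe signals has no absolute meaning, and only its change between groups is read. For its partner Slc7a5, Slc3a2 was read with the brighter of its probes only. The log2 ratio of Slc7a5 to Slc3a2 was -5.27 ± 0.52 in PP242 and -3.95 ± 0.40 in DMSO (SD, n = 4 each), a difference of -1.32 with no overlap (exact two-sided permutation p = 0.0286, the smallest that 4 against 4 allows). In rapamycin it was -3.95 ± 0.53, a difference of 0.00 from DMSO that rests on rapamycin 3, at -3.27. Without that array the difference was -0.22, and on the 8 arrays it was -0.33. All 4 PP242 arrays were also below all 4 rapamycin arrays in this ratio.

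The ratio of Slc7a1 to Slc7a3 was 2.47 ± 0.37 in PP242 and 3.93 ± 0.34 in DMSO (SD, n = 4 each), a difference of -1.46 without overlap (exact permutation p = 0.0286). In rapamycin it was 3.89 ± 0.19 on arrays 1, 2 and 4 (SD, n = 3), and 0.22 on rapamycin 3. Arrays with raised dim probes had the lower values of this ratio in each group. PP242 1 and 4 had 2.27 and 2.06, against 2.68 and 2.87 on PP242 2 and 3. DMSO 2 had 3.44, against 3.98 to 4.23 on the other DMSO arrays. Their part in the 12-array difference was not tested. The ratio of Slc38a1 to Slc38a2, read with the brighter probe of each, was -2.83 ± 0.19 in PP242, -2.22 ± 0.24 in rapamycin and -1.91 ± 0.18 in DMSO (SD, n = 4 each). PP242 lay below DMSO by -0.92 and below rapamycin by -0.61, in both cases with no overlap (exact permutation p = 0.0286). With the dimmer probe of Slc38a2, an alternative added after seeing the data, the ratio was 0.05 ± 0.59 in PP242, 0.33 ± 0.17 in rapamycin and 0.53 ± 0.12 in DMSO (SD, n = 4 each). PP242 then overlapped both, at -0.48 from DMSO and -0.27 from rapamycin (exact permutation p = 0.0571 and 0.571), and on the 8 arrays the differences were -0.17 and 0.09. The ratio of Slc1a4 to Slc1a5 differed between PP242 and DMSO by 0.20, within the spread (exact permutation p = 0.371). Over the 12 tests, 4 pairs in 3 comparisons, the lowest Benjamini-Hochberg adjusted p was 0.0686, so none passed 0.05 after adjustment. On the 8 arrays, where 2 against 3 allows no exact p below 0.2, the Slc7a5, Slc7a1 and Slc38a1 ratios differed between PP242 and DMSO by -1.81, -1.32 and -0.81.

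**Figure D3:**
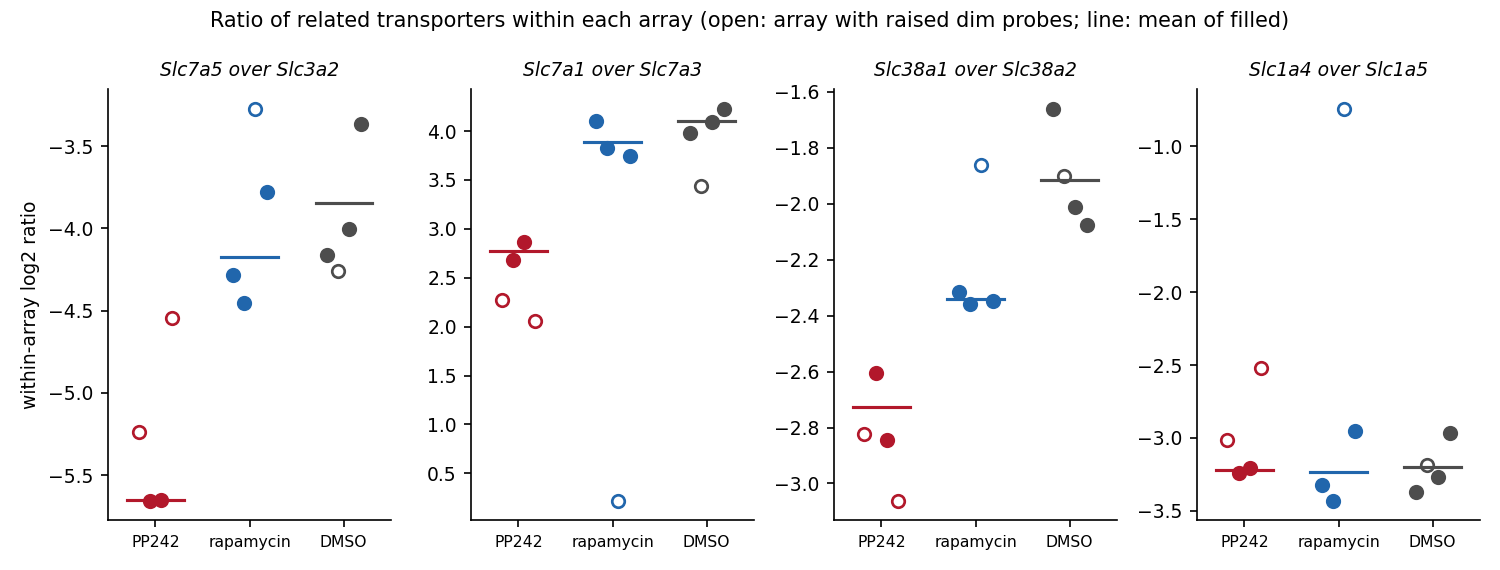
Log2 ratio of 2 related transporter genes within each of the 12 arrays (vertical axis), by group; open points are the 4 arrays with raised dim probes and lines are means of the filled points. Slc3a2 and Slc38a2 are read with their brighter probes. For the first 3 pairs all 4 PP242 points lie below all 4 DMSO points, and for Slc1a4 over Slc1a5 they overlap.

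Correlations of levels across the 8 arrays are descriptions that hold the difference between treatments. Pearson's r with Slc7a5 was 0.96 for Slc7a1, 0.90 for Slc38a1, 0.78 for Slc6a9, 0.68 for Slc1a5, 0.63 for Slc3a2 and -0.17 for Slc38a2, and r of Slc7a1 with Slc38a1 was 0.80. Slc6a9 ran with Slc1a5 (r = 0.96) and Slc1a4 (r = 0.87). DMSO 4 was the highest DMSO array for these genes, and also for Slc7a5, Slc7a1, Slc3a2 and Slc38a2. Of 10763 genes with a symbol that were above background on all 8 arrays, the 5 closest to Slc7a5 were Akap8, B3gnt5, Gspt1, Cth and Siah2, with r from 0.995 to 0.998. Gspt1 is a translation termination factor and Cth makes cysteine from cystathionine. Closest to Slc3a2 were Tbpl1, Ccl8, Nfe2l1, Gtf2h2 and Cacnb2, with r from 0.956 to 0.985.

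Other amino acid transporters of the plasma membrane were measured in 18 of 34 listed cases on the 8 arrays, and against DMSO 4 were lower and 0 higher in PP242. The median of the 18 was -0.11. Over all genes on the 8 arrays, 12.9% were lower and 12.9% higher in PP242 than in DMSO. Relative to rapamycin the shares were 7.08% and 6.82%. Without rapamycin 3, 23.1% of all genes were called against DMSO, and with all 12 arrays 0.387%. The counts of this list and of those that follow are to be read beside these shares. Slc6a6, the taurine transporter, had levels of 2.13 and 1.99 on PP242 arrays 2 and 3, against 3.59, 3.66 and 3.30 on DMSO arrays 1, 3 and 4, and fell by 1.46 ± 0.13 on the log2 scale (limma adjusted p = 0.000894). Slc1a3, a glutamate transporter, fell by 1.89 ± 0.43 and Slc38a4 by 0.68 ± 0.17 (limma adjusted p = 0.0206 and 0.0271). Slc7a11, the cystine exchanger that also pairs with Slc3a2, was not well above background on either PP242 array and was above it on all 3 DMSO arrays. It was at least 4.66-fold lower in PP242, where this bound sets the mean of the DMSO arrays against the dimmest signal above background on each PP242 array, or the probe's own signal where higher. The limma adjusted p of 0.00735, by which it counts among the 4 lower genes, was not computed from this bound. It came from the levels of -8.65 and -9.01 on PP242 arrays 2 and 3, which were not well above background. The gene entered the fit through its DMSO arrays, where it is high, and 1 rapamycin array. Its direction was thus set by that filter, and its place among the 4 is no separate support for a fall. Slc7a6, a further light chain, and Slc6a15 did not pass, at -0.46 ± 0.18 and -0.05 ± 0.15. Relative to rapamycin, Slc6a6 alone of the 18 was called, at -0.87 ± 0.13 (limma adjusted p = 0.00917). On 12 arrays 0 of 26 measured were called in either comparison (unadjusted p under 0.05 for 3 against DMSO and 0 against rapamycin), and without rapamycin 3 it was 4 of 18 against DMSO.

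Of 13 lysosomal and other intracellular amino acid transporters, Slc25a13, a mitochondrial aspartate and glutamate carrier, fell by 0.99 ± 0.19 in PP242 against DMSO (limma adjusted p = 0.0115) and 0 rose. Its relative Slc25a12 and the broadly expressed Slc38a10 did not pass, at -0.09 ± 0.09 and -0.02 ± 0.11. Without rapamycin 3 the count was 3 lower of 13, and on 12 arrays it was 0 of 15, with 1 at an unadjusted p under 0.05 by limma.

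Among 25 genes that report amino acids to mTORC1, 5 were higher and 6 lower in PP242 than in DMSO. Sesn2, a leucine sensor and ATF4 target, fell by 1.41 ± 0.14, and Sec13, a subunit of the GATOR2 complex and of the nuclear pore, fell by 0.61 ± 0.10 (limma adjusted p = 0.00136 and 0.00639). Castor1, an arginine sensor, rose by 1.37 ± 0.22 (limma adjusted p = 0.0066). Depdc5, of the GATOR1 complex, was not well above background in PP242 and was at least 2.13-fold lower. Its call here and its call against rapamycin were computed from those dim PP242 signals and not from the bound. It entered the fit through DMSO and rapamycin arrays alone, so the filter set its direction in both. Lamtor1 and Rragc, of the lysosomal scaffold and GTPases, did not pass, at 0.07 ± 0.27 and 0.32 ± 0.42. Against rapamycin 4 were higher and 3 lower in PP242, with Sec13, Nprl2, Depdc5 and Itfg2 first by adjusted p. The direction was mixed, and without rapamycin 3 the count against DMSO was 2 higher and 4 lower. On 12 arrays limma called 0 of 26 against DMSO, with 2 at an unadjusted p under 0.05.

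All 14 regulators and markers of the amino acid response were measured, and in PP242 4 were lower and 2 higher than in DMSO. Trib3, an ATF4-induced inhibitor of that response, had levels of -0.62 and -0.46 on PP242 arrays 2 and 3, against 1.86, 1.94 and 2.45 on DMSO arrays 1, 3 and 4. It fell by 2.62 ± 0.31 (limma adjusted p = 0.00237). Asns, which makes asparagine, fell by 1.21 ± 0.16, and Atf4 itself by 0.50 ± 0.12 (limma adjusted p = 0.00336 and 0.0234). Atf3, a stress-induced factor of the same family, rose by 2.34 ± 0.24 (limma adjusted p = 0.00142). Atf5 and Nupr1 did not pass, at -0.23 ± 0.20 and 0.56 ± 0.62. Without rapamycin 3 the count was 5 lower and 1 higher, and on 12 arrays it was 1 lower and 0 higher. Against rapamycin, Atf3 and Ddit3 were higher and Trib3 lower in PP242, by 3.19 ± 0.24, 2.05 ± 0.49 and -1.33 ± 0.31 on the log2 scale. Rapamycin against DMSO gave 0 calls by limma in each of these 4 lists on the 8 arrays, with 6 of the 14 response genes, 4 of the 25 sensing genes, 1 of the 13 intracellular and 2 of the 18 other surface transporters at an unadjusted p under 0.05. Over all genes 13.1% lay under that value.

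On the 6 arrays the counts in PP242 against DMSO were 6 lower and 2 higher of the 18 surface transporters, 3 and 3 of the 13 intracellular, 6 and 7 of the 25 sensing and 6 and 4 of the 14 response genes. In rapamycin against DMSO they were 3 lower and 1 higher, 1 and 0, 2 and 1, and 4 and 1, in the same order of lists. Over all 19119 genes, 4373 were lower and 5058 higher in PP242 against DMSO, 49.3% together. In rapamycin against DMSO 821 were lower and 1344 higher, 11.3% together. The list counts are to be read beside these shares.

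**Figure D4:**
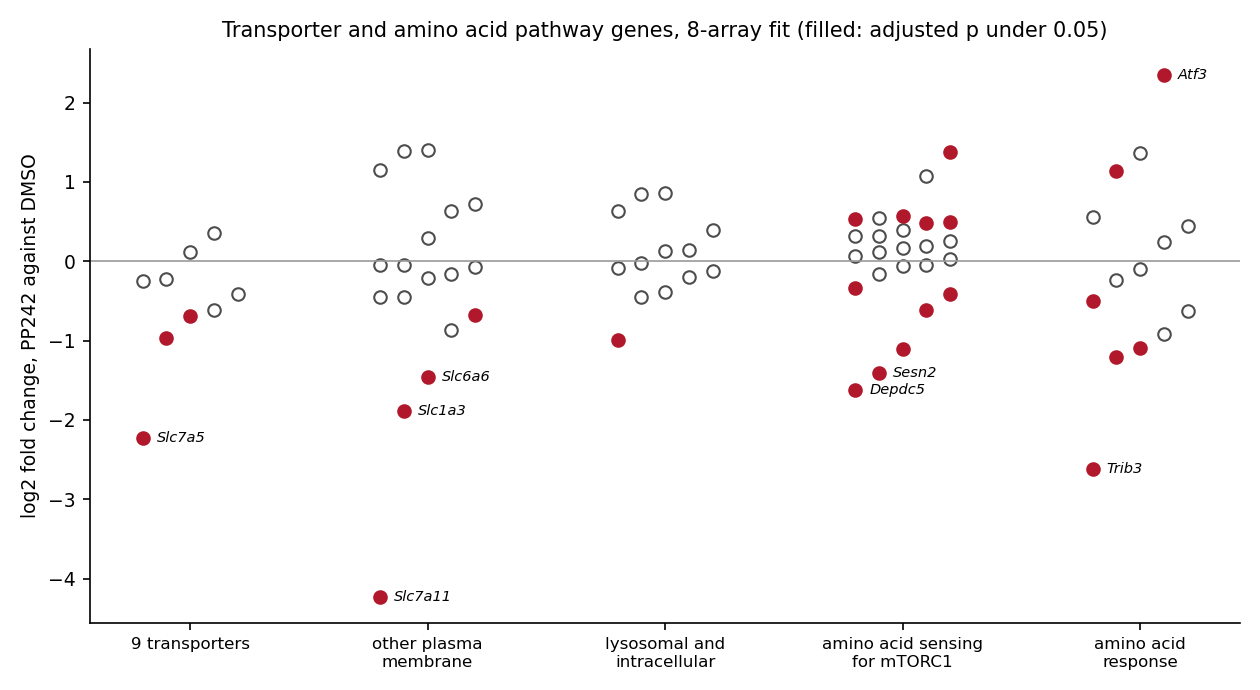
Log2 fold change in PP242 against DMSO on the 8 arrays (vertical axis) for the measured genes of 5 lists, with filled points for genes past an adjusted p of 0.05. Called genes of both transporter groups at the surface lie below 0, and the sensing and response lists hold called genes on both sides. The values drawn for Slc7a11 and Depdc5 rest on PP242 signals not well above background.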

How the data were processed

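RNA from 12 cultures was amplified with a Sigma kit, labelled with Cy3 and hybridised to one-colour Agilent arrays, per the labels' protocols. Each deposited scanner file gives the intensity, on a linear scale, of 45018 spots, of which 1639 are controls; the processed intensity was background-subtracted by Agilent Feature Extraction, version 10.5.1.1 per the file headers and 10.1 per the submitters' processing notes. A deposited table of log2 values, with column medians of 8.54 to 8.56 and a tool not given in the sources used here, served as an alternative.

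From the processed intensity, log2 was taken and each array's 75th percentile subtracted. Outlier spots (1.34% of values) were left out; none belonged to the 9 genes. Of 41174 probes, 24844 had 1 symbol, 0 several and 16330 none, by matching 24844 of 26382 RefSeq accessions to the RefSeq table of GRCm38.p6. A probe entered the fit when it was flagged well above background on 2 or more of the 8 arrays (4 or more of 12), and the brightest probe stands for a gene. Limma 3.58.1 in R 4.3.3 fitted the 3 groups together on the 8 arrays whose 75th percentile was over 100 times the 25th, with Benjamini-Hochberg adjustment over 19669 genes and a two-sided threshold of 0.05. In simulated PP242 and DMSO data of this design, over 19669 genes, limma called at least 90% of genes changed by 1 on the log2 scale and 100% of those changed by 2. Every simulated gene had the same spread, set from the median over genes, and independent noise. Genes with a larger spread, and shifts that an array gives to several genes, were not simulated. The shares called therefore do not carry over to such genes. The number of arrays limits precision. Normexp was planned on mean signals and run on the median signals held here, with an offset of 50. Python 3.11.15, pandas 2.3.3, numpy 2.4.6, scipy 1.17.1 and matplotlib 3.10.9 were used.

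The genes, lists and tests were chosen with earlier results of these data known. All 9 transporters are named whatever their result; of each other list, up to 4 passing genes, lowest adjusted p first, and up to 2 others, highest level first; and the 5 genes most correlated with Slc7a5 and with Slc3a2.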

Additional observations from a re-analysis of the deposited data

Results flagged for a closer look

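Within groups of 4 arrays, 9 of 27 gene and group combinations held an array that stood apart by Dixon's test. A single such test flags about 1 in 20 by chance. The genes share the same arrays, and all 9 came from rapamycin 3 or DMSO 4. The combinations are therefore not independent, and their count is not set against that rate. Rapamycin 3 was low for Slc7a1 (level -0.74), Slc1a5 (1.36), Slc38a1 (1.21), Slc38a2 (3.07) and Slc6a9 (1.88), and high for Slc7a3 (-0.97). DMSO 4 was high for Slc1a4 (1.11), Slc1a5 (4.08) and Slc6a9 (4.76). DMSO 4 was not among the arrays with raised dim probes. Its weight, 0.577, was close to that of rapamycin 4, at 0.520, while the other 6 of the 8 arrays had 3.74 to 6.37.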

How the results depend on the processing

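The main counts of called transporter genes were 3 for PP242 against DMSO, 2 for PP242 against rapamycin and 0 for rapamycin against DMSO. Using all 12 arrays gave 0 in each comparison, as did the 12 arrays with slide as a block, with quantile normalisation, with median centring or with the replicate block. Array weights on the 12 gave 6, 4 and 2, with 36.8%, 29.3% and 13.1% of all genes called; Slc7a3 was among the 6 and the 4 as higher (limma adjusted p = 0.00384 and 0.0143). The 6 arrays without those numbered 4 gave 6, 3 and 2. Without rapamycin 3 the counts were 4, 2 and 0; over all genes PP242 against DMSO then gave 4799 calls, against 99 on 12 arrays and 5087 on the 8. Leaving out any other single array of the 12 gave 0 transporter calls in all comparisons, except 1 in PP242 against DMSO without PP242 4. On the 8 arrays, median centring gave 1 for PP242 against rapamycin and slide as a block gave 0. Leaving out 1 of the 8 arrays gave 2 to 4 calls for PP242 against DMSO, 0 to 2 for PP242 against rapamycin and 0 for rapamycin against DMSO. The replicate block on the 8 arrays gave 2, 0 and 0 calls, with Slc7a1 lost at -0.89 (limma adjusted p = 0.0657). The main fit did not take the numbers to pair the samples, since the titles do not say that they do. Same-number correlations were 0.45, 0.12, 0.62 and -0.25, and 4 of the 8 arrays correlated best with their own number. These values do not settle whether arrays of 1 number share an effect. The 8 arrays hold DMSO 4 and rapamycin 4 but not PP242 4, so such an effect could not be told apart from PP242 there. Slc7a5 was lower in PP242 than in DMSO under all 29 alternatives (-2.72 to -1.49) and was called under 24, as was Slc38a1 (-1.76 to -0.57); Slc7a1 was called under 20 (-1.84 to -0.80). The only sign change of a called value was Slc7a1 in PP242 against rapamycin, 0.00931 on 12 arrays with quantile normalisation; the cause was not tested. For genes not called, no direction is claimed. With 12 arrays the median of all genes in PP242 against DMSO was 0.38, and -0.43 after median centring. The Slc7a5 to Slc3a2 ratio differed between PP242 and DMSO by -1.81 to -1.11 under 16 alternatives and the Slc7a1 to Slc7a3 ratio by -1.63 to -0.75; the Slc38a1 to Slc38a2 ratio differed by -0.998 to -0.476 under 17, the smallest with the dimmer Slc38a2 probe. Changes under 1 on the log2 scale were not simulated.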
